A study of Mus musculus with 31 samples.

Results

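The insulin-like growth factor (IGF) receptors and binding proteins were followed through 9 genes: the ligand gene Igf1, the receptor genes Igf1r and Igf2r, and the binding protein genes Igfbp2, Igfbp3, Igfbp4, Igfbp5, Igfbp6 and Igfbp7. They were chosen by symbol, with earlier results of these data known, and every probe set annotated to a member symbol alone was kept. Counts of members called beside a background are therefore a description. This gave 26 of the 45037 probe sets tested: 6 for Igfbp4, 5 for Igf1r, 4 for Igf1, 3 for Igfbp7, 2 each for Igf2r, Igfbp3 and Igfbp5, and 1 each for Igfbp2 and Igfbp6. All 26 are described, with no filter on level. Levels are log2 intensities, and a level of a probe set is set only against other levels of the same probe set.

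IGF ligands act through Igf1r, a receptor tyrosine kinase that signals to PI3K and AKT and drives growth before birth in the mouse. Igf2r, which is also the mannose 6-phosphate receptor, takes up Igf2 for breakdown instead of signalling growth. The binding proteins hold IGFs in the extracellular space, and proteases such as Pappa, which cuts Igfbp4, set them free.

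The arrays fell into 4 groups. Nos3-/- embryoid bodies at day 11 of differentiation gave 6 arrays, control embryoid bodies at day 11 gave 9, Nos3-/- induced pluripotent stem cells (iPSCs) at day 0 gave 6, and control iPSCs at day 0 gave 10. Nos3 encodes endothelial nitric oxide synthase. Tail-tip fibroblasts from adult males, of strain B6.129P2-Nos3tm1unc/J for Nos3-/- and of strain CD1 for control, had been reprogrammed by Sendai virus in every group, so genotype and strain cannot be told apart. iPSCs were kept on a layer of inactivated mouse embryonic fibroblasts (feeder cells), and embryoid bodies are aggregates that differentiated spontaneously. Whether the arrays within a group stand for different cultures or clones is not labelled, and the p-values therefore reflect a spread among arrays that may be only technical. The number of arrays limits the precision.

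The 31 arrays had medians from 6.13 to 6.22, and 0 pairs were identical. Nos3-/- day 11 replicate 3 stood apart: its mean correlation with its own group was 0.969, against 0.9817 to 0.9895 for the other day 11 arrays, and its cardiomyocyte list mean was 5.52, against 7.18 to 10.5. Nos3-/- day 0 replicate 3 had a pluripotency list mean of 8.93, against 11 to 11.5 on the other Nos3-/- iPSC arrays, although Pou5f1 was at 11.55 or above on every iPSC array. In embryoid bodies 8 of 13 cardiomyocyte genes rose over time in Nos3-/- and 12 of 13 in control cells, while Pou5f1 was still at 10.83 or above on every embryoid body array. Member values that leaving out either array moved are given beside the result. The Nos3 probe set lay at 6.88 ± 0.14 in Nos3-/- and 7.05 ± 0.21 in control embryoid bodies, and at 6.98 ± 0.18 in Nos3-/- and 6.65 ± 0.24 in control iPSCs (SD, n = 6, 9, 6 and 10). Where its probes lie relative to the targeted allele is not known here, and it therefore checks nothing.

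From iPSCs to embryoid bodies, the receptors Igf1r and Igf2r and the binding protein Igfbp4 were higher at day 11 in both genotypes. Igfbp5 was higher and Igfbp7 lower in both genotypes on 1 probe set each, of 2 for Igfbp5 and 3 for Igfbp7. Igfbp2 rose in Nos3-/- cells and Igfbp3 fell in control cells, but for neither gene did the difference between genotypes in the change over time pass. Over time 14 member probe sets rose and 3 fell in Nos3-/- cells, against a background of 28.6% of all probe sets called (14.8% higher and 13.7% lower). In control cells 13 rose and 6 fell, against a background of 33% (17.5% higher and 15.5% lower). A probe set was called at a limma adjusted p under 0.05 over all probe sets. The median change was 0.48 over the 26 member probe sets in Nos3-/- cells and 0.32 in control cells, beside -0.02 over all probe sets in each. At 1 probe set per gene the medians of the 9 members were 0.695 in Nos3-/- and 0.0124 in control cells. At day 11 and day 0 the arrays did not overlap on 14 member probe sets in Nos3-/- cells, where 8.77% of all probe sets did not overlap, and on 10 in control cells, where 6.02% did not.

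**Figure D1:**
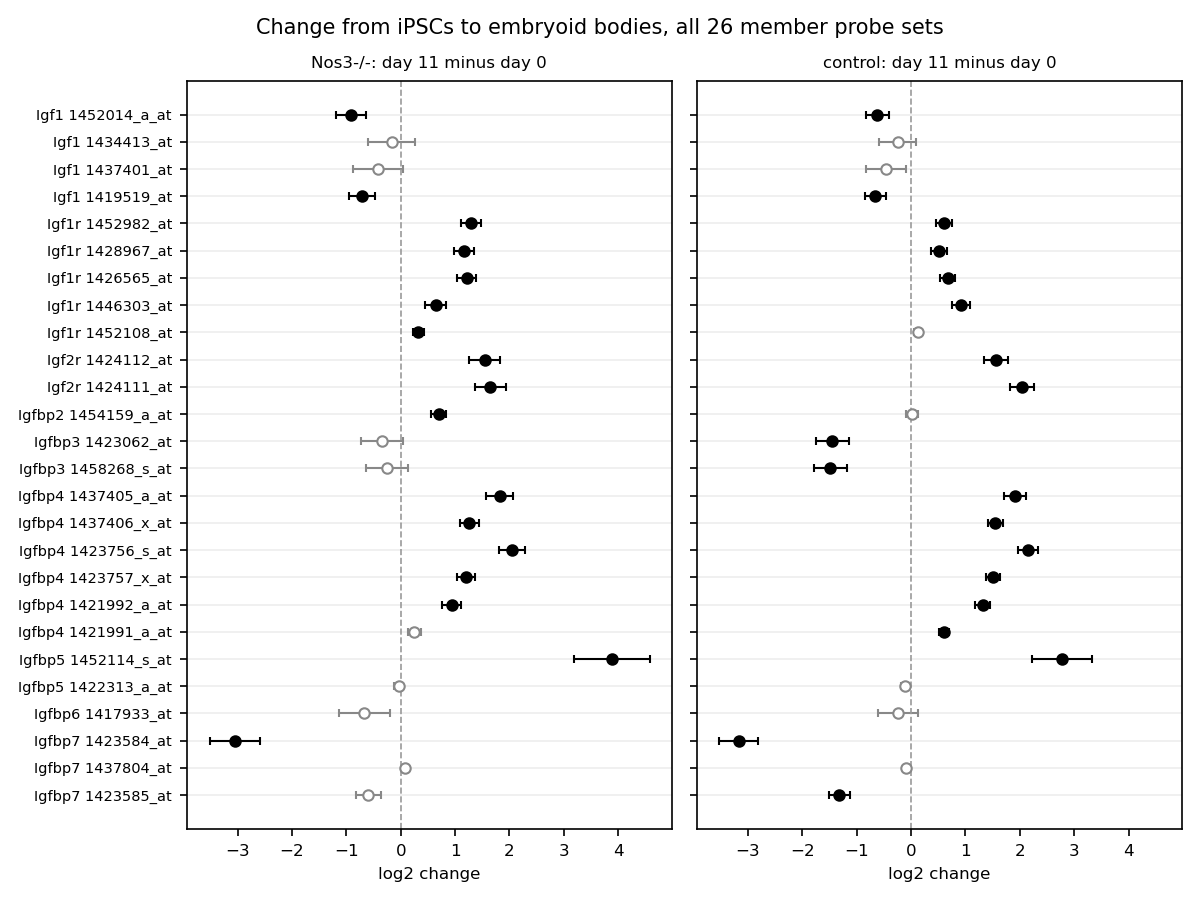
Change in log2 level from day 0 to day 11 (day 11 minus day 0) for the 26 member probe sets, in Nos3-/- cells (left) and control cells (right). Points are limma estimates, bars are ± 1 standard error, and filled points passed at an adjusted p under 0.05; Igfbp5 1452114_s_at is highest and Igfbp7 1423584_at lowest in both panels, while the other Igfbp5 probe set lies near 0.

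Between genotypes, Nos3-/- embryoid bodies had more Igfbp2 and less Igfbp4 than control embryoid bodies. At day 11, 1 member probe set was higher in Nos3-/- and 6 were lower, all 6 of Igfbp4, against a background of 8.72% (4.24% higher and 4.48% lower). At day 0, 0 were higher and 5 were lower, of Igf1r, Igfbp4 and Igfbp7, against a background of 11.6% (6.19% higher and 5.43% lower). Leaving out Nos3-/- day 0 replicate 5 gave 1 call at day 0, and leaving out replicate 3 of either Nos3-/- group gave 8. The share of all probe sets called in those fits was not computed. The median difference of the 26 was -0.25 at day 11 and -0.39 at day 0, beside 0.00167 over all probe sets on each day. At 1 probe set per gene the medians of the 9 members were 0.07 at day 11 and -0.56 at day 0. The sign at day 11 thus depends on the weight of genes with several probe sets. So counted, 2 of 9 members were called at day 11 (22.2%, beside 9.53% of all genes) and 1 of 9 at day 0 (11.1%, beside 14.9%). The groups overlapped on all 26 at both days, where 2.62% of all probe sets at day 11 and 1.72% at day 0 did not. For the difference between genotypes in the change over time, limma called 0 of the 26, against a background of 0.775%. An unadjusted limma p under 0.05 was found for 9, of Igf1r, Igfbp2, Igfbp3, Igfbp4 and Igfbp7. Several of these share a gene and are not independent. The share of all probe sets at that unadjusted level was not computed, so the 9 have no background.

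**Figure D2:**
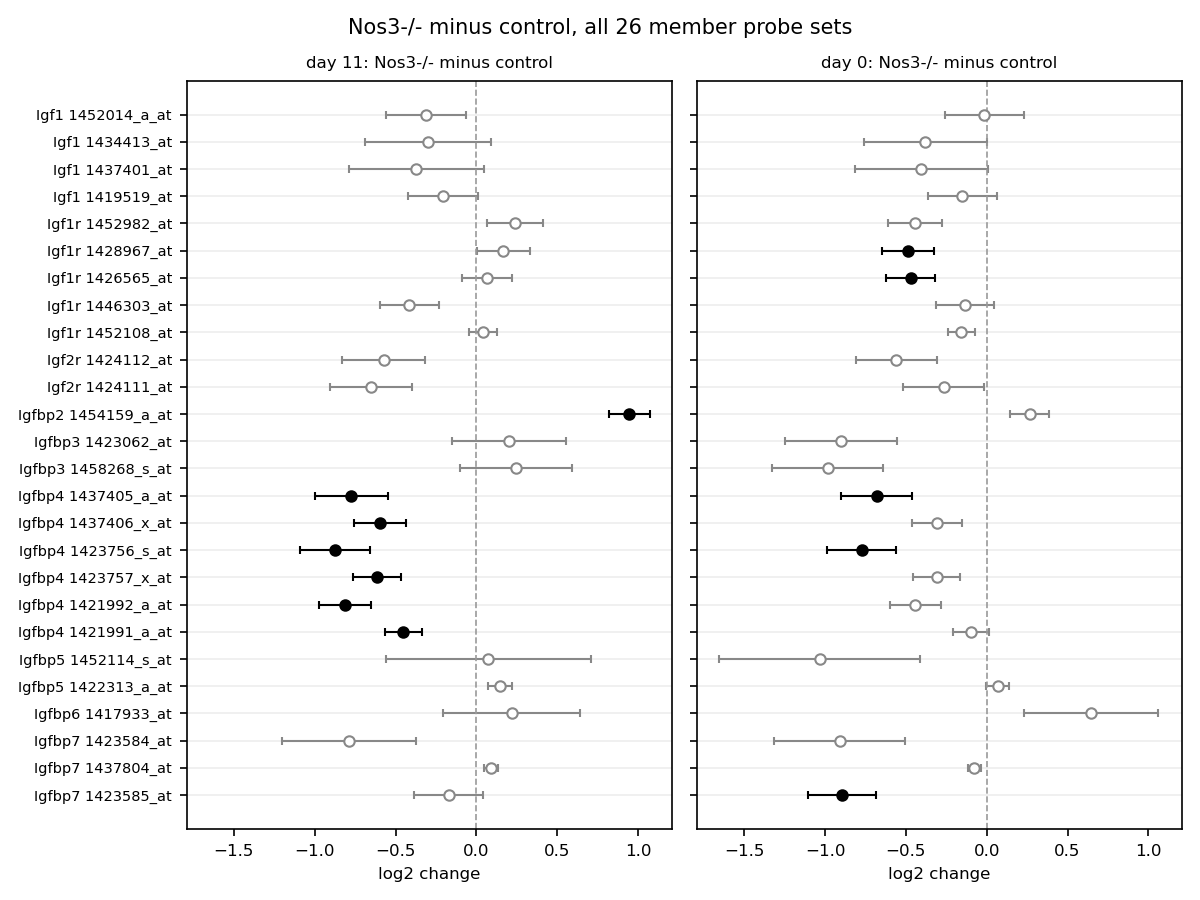
Difference in log2 level, Nos3-/- minus control, for the 26 member probe sets at day 11 (left) and day 0 (right). Points are limma estimates, bars are ± 1 standard error, and filled points passed at an adjusted p under 0.05; at day 11 these are Igfbp2 to the right of 0 and all 6 Igfbp4 probe sets to the left.

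The members are first taken as ligand and receptors. Igf1, the growth factor that binds Igf1r, was lower at day 11 than at day 0 on 2 of its 4 probe sets in each genotype. On 1452014_a_at the lowest, median and highest levels were 5.48, 6.47 and 7.01 in Nos3-/- embryoid bodies and 6.14, 6.47 and 8.13 in control embryoid bodies. They were 6.80, 7.18 and 7.89 in Nos3-/- iPSCs and 6.57, 7.36 and 7.74 in control iPSCs. In both genotypes the days overlapped: 4 of 6 Nos3-/- and 5 of 9 control embryoid body arrays lay below every iPSC array of their genotype, and control day 11 replicate 4 lay above every control iPSC array. Igf1 fell by 0.92 in Nos3-/- cells (SE 0.27, limma adjusted p = 0.0119) and fell by 0.62 in control cells (SE 0.22, limma adjusted p = 0.0271). The control call was lost without replicate 1, 2 or 6 of day 11, at changes of -0.57, -0.57 and -0.55 with adjusted p from 0.0513 to 0.0562. When the 4 probe sets of Igf1 were averaged, neither change passed, at -0.56 in Nos3-/- (adjusted p = 0.208) and -0.50 in control (0.147).

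The other Igf1 probe sets differed among themselves. On 1419519_at Igf1 fell by 0.71 in Nos3-/- (SE 0.24, limma adjusted p = 0.0248) and fell by 0.66 in control cells (SE 0.19, limma adjusted p = 0.0078). The Nos3-/- call was lost without Nos3-/- day 0 replicate 1 (-0.53, adjusted p = 0.0791) or 2 (-0.67, 0.0518) or Nos3-/- day 11 replicate 3 (-0.63, 0.0543). On 1434413_at and 1437401_at, which correlated with each other at r = 0.966 over the 31 arrays, the changes were -0.17 and -0.42 in Nos3-/- and -0.25 and -0.46 in control, and none passed (limma adjusted p 0.365 to 0.809). On all 4 probe sets the highest Nos3-/- iPSC array was replicate 1, which also had the highest macrophage list mean of its group, 10.0 in a range from 7.34. In control embryoid bodies replicate 4 was highest on all 4 probe sets. Its macrophage list mean of 6.063 lay below those of replicates 7, 8 and 9, at 6.979, 6.562 and 6.427. In Nos3-/- embryoid bodies replicate 6 was highest on all 4 probe sets, at a list mean of 5.888, and replicate 4 had the highest list mean, 6. In control iPSCs the highest array was replicate 6, 7 or 9, by probe set, and replicate 4 had the highest list mean, 10.02. Differences between genotypes in Igf1 ran from -0.37 to -0.21 at day 11 and from -0.40 to -0.01 at day 0, and 0 of the 8 passed. Without Nos3-/- day 11 replicate 3, the lowest on all 4 probe sets, the day 11 difference was -0.13 on 1452014_a_at, -0.11 on 1434413_at and -0.11 on 1437401_at.

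Macrophage markers moved with Igf1 over time. Of the 12 genes of that list, which includes Csf1r and Adgre1, 0 rose and 11 fell in Nos3-/- cells, and 0 rose and 12 fell in control cells. The mean level of the list ran from 5.67 to 6 in Nos3-/- and from 5.72 to 6.98 in control embryoid bodies, and from 7.34 to 10 in Nos3-/- and 7.42 to 10 in control iPSCs, so the days did not overlap in either genotype. Adgre1 averaged 5.00 ± 0.33 in Nos3-/- and 5.32 ± 0.20 in control embryoid bodies, and 7.37 ± 1.40 in Nos3-/- and 7.46 ± 1.16 in control iPSCs (SD). The part of such cells in the Igf1 result was not tested. In bulk samples, fewer cells of a type and less RNA per cell cannot be told apart.

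Igf1r, the signalling receptor, was higher at day 11, on 5 of 5 probe sets in Nos3-/- and on 4 of 5 in control cells. On 1452982_at its lowest, median and highest levels were 9.58, 10.07 and 10.29 in Nos3-/- embryoid bodies and 9.30, 9.81 and 10.18 in control embryoid bodies. In iPSCs they were 8.11, 8.90 and 9.07 for Nos3-/- and 8.78, 9.16 and 10.05 for control. The days did not overlap in Nos3-/- cells. In control cells day 0 replicate 10, at 10.05, lay among the embryoid bodies, and every other control iPSC array was at 9.33 or below.

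On this Igf1r probe set the rise was 1.29 in Nos3-/- (SE 0.19, limma adjusted p = 1.13e-05) and 0.61 in control cells (SE 0.15, limma adjusted p = 0.00197). The difference between these rises was 0.68 and did not pass (SE 0.24, limma adjusted p = 0.183). The probe sets 1428967_at and 1426565_at, which followed 1452982_at at r = 0.981 and 0.953, rose by 1.17 and 1.21 in Nos3-/- and by 0.52 and 0.67 in control cells. On 1446303_at Igf1r rose by 0.64 in Nos3-/- and 0.92 in control cells, and the Nos3-/- rise was lost without day 11 replicate 2 (0.53, adjusted p = 0.0595). On 1452108_at it rose by 0.33 in Nos3-/-, and the control change of 0.13 did not pass (limma adjusted p = 0.185).

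Igf1r was lower in Nos3-/- than in control iPSCs on 2 of 5 probe sets. On 1426565_at the levels were 7.19, 7.83 and 7.98 in Nos3-/- iPSCs and 7.57, 8.13 and 8.97 in control iPSCs (lowest, median, highest). The groups overlapped, with 2 of 6 Nos3-/- arrays below every control array and 6 of 10 control arrays above every Nos3-/- array. The difference was -0.47 (SE 0.15, limma adjusted p = 0.0401), and on 1428967_at it was -0.49 (SE 0.16, limma adjusted p = 0.0473). Both sit close to the threshold: the first was lost in 7 and the second in 18 of 31 omissions of a single array, with the highest adjusted p, 0.161 and 0.22, without Nos3-/- day 0 replicate 5. On 1452982_at the difference of -0.44 did not pass (limma adjusted p = 0.0832) and passed without Nos3-/- day 0 replicate 3 (-0.51, adjusted p = 0.0495). At day 11 the 5 differences ran from -0.41 to 0.24 and 0 passed.

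Igf2r, the uptake receptor, was higher in embryoid bodies on both probe sets in both genotypes. On 1424112_at its lowest, median and highest levels were 9.99, 11.29 and 11.84 in Nos3-/- embryoid bodies and 10.99, 11.62 and 12.97 in control embryoid bodies. They were 9.21, 9.58 and 9.98 in Nos3-/- iPSCs and 9.63, 10.17 and 11.03 in control iPSCs. The days did not overlap in Nos3-/- cells although day 11 replicate 3, at 9.99, lay close to the highest iPSC array, and in control cells 8 of 9 embryoid body arrays lay above every iPSC array. Igf2r rose by 1.54 in Nos3-/- (SE 0.28, limma adjusted p = 0.000165) and by 1.56 in control cells (SE 0.22, limma adjusted p = 3e-06). On 1424111_at the rises were 1.65 and 2.04. Genotype differences on 1424112_at and 1424111_at were -0.57 and -0.65 at day 11 and -0.56 and -0.27 at day 0, and none passed (limma adjusted p 0.121 to 0.551). Without Nos3-/- day 11 replicate 3 the day 11 differences were -0.34 (adjusted p = 0.459) and -0.40 (0.336). Without control day 11 replicate 1, that on 1424111_at passed (-0.77, adjusted p = 0.046).

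**Figure D3:**
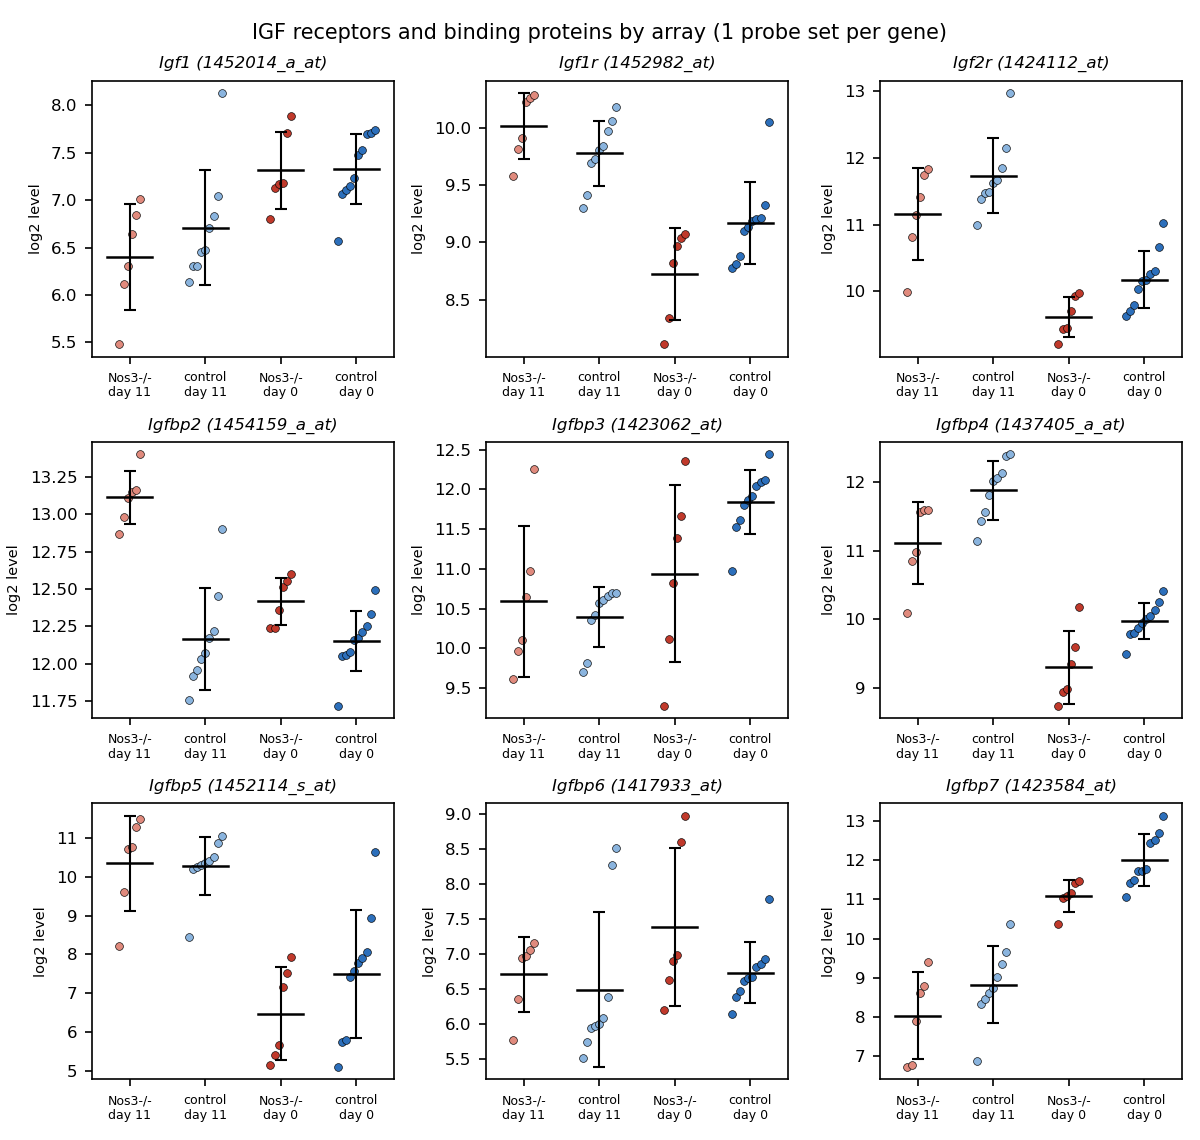
Log2 level on each array of the 9 member genes, at the probe set with the highest mean, in embryoid bodies (6 Nos3-/- and 9 control arrays) and iPSCs (6 Nos3-/- and 10 control arrays). Points are arrays, long bars group means and error bars SD; axes differ between panels and do not start at 0. Igfbp2 is highest in Nos3-/- embryoid bodies, and Igfbp7 is lower on every day 11 array than on every day 0 array of its genotype.

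Among the binding proteins, the results turned on Igfbp2, Igfbp4, Igfbp5 and Igfbp7, and the 250 bases before their start sites are shown so that their promoters can be compared. Igfbp2 and Igfbp5 are neighbours on chromosome 1, on opposite strands. The windows are those of the reference mouse genome, GRCm38.p6, as given by RefSeq, written 5′ to 3′ on the strand of the gene, and all 9 members had at least 1 window. Capitals mark the GC box, GGGCGG, and the TATA box, TATAAA. Both strands were searched, and on the opposite strand the GC box reads as CCGCCC. Over 32851 such windows of 250 bases, 32.7% held GGGCGG and 12.4% TATAAA, and these motifs do not overlap each other here. The window of Igfbp2, the first of 2 listed for that gene, is chr1:72824230-72824479 on the plus strand, that of Igfbp4 is chr11:99040994-99041243 on the plus strand, that of Igfbp5 is chr1:72874866-72875115 on the minus strand and that of Igfbp7 is chr5:77408046-77408295 on the minus strand.
Igfbp2: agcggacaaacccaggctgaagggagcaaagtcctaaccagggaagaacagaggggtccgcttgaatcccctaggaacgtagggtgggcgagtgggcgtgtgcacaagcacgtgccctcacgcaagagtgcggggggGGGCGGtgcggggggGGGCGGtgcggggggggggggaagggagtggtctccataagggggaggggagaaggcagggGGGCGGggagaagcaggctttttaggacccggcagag
Igfbp4: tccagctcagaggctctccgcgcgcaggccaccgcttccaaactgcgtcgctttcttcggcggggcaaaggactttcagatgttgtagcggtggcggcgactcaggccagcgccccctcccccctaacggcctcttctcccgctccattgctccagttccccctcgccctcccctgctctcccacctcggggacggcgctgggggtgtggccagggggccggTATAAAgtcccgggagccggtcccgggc
Igfbp5: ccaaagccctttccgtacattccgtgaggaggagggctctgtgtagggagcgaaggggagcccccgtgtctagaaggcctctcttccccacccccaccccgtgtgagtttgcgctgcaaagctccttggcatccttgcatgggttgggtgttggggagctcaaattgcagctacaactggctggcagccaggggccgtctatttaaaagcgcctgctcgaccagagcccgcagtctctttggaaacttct
Igfbp7: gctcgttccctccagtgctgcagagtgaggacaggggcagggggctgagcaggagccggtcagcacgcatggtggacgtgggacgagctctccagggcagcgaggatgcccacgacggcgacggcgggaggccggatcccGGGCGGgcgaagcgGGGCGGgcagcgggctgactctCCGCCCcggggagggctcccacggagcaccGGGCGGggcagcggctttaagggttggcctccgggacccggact
The printed window of Igfbp2 held 3 GC boxes and no TATAAA, Igfbp4 held 1 TATAAA at 28 bases before the start site and no GC box, Igfbp7 held 4 GC boxes and no TATAAA, and Igfbp5 held neither. The count of CG dinucleotides was 14 in the printed Igfbp2 window, 22 in that of Igfbp4, 10 in that of Igfbp5 and 26 in that of Igfbp7, beside a median of 6 over all windows. The other window listed for Igfbp2, chr1:72825137-72825386 on the plus strand, held 0 GC boxes, 0 TATAAA and 11 CG dinucleotides. These matches describe the letters of the reference, and the alleles of the strains used were not read.

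Igfbp2, a binding protein that is abundant in fetal tissues, was the member with the lowest adjusted p between genotypes at day 11. Its probe set 1454159_a_at had a lowest, median and highest level of 12.87, 13.13 and 13.40 in Nos3-/- embryoid bodies, against 11.76, 12.07 and 12.90 in control embryoid bodies. In iPSCs these were 12.24, 12.44 and 12.60 for Nos3-/- and 11.72, 12.17 and 12.49 for control. Of the 6 Nos3-/- embryoid bodies, 5 lay above every control one, and control replicate 1, at 12.90, was the sole control array inside the Nos3-/- range.

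The Igfbp2 difference at day 11 was 0.95 (SE 0.12, limma adjusted p = 2.34e-06), and it passed in all 31 omissions of a single array, with differences from 0.89 to 1.04. At day 0 the difference of 0.26 did not pass (SE 0.12, limma adjusted p = 0.165). Over time Igfbp2 rose by 0.70 in Nos3-/- cells (SE 0.14, limma adjusted p = 0.000355), with no overlap between the days, and changed by 0.01 in control cells (SE 0.11, limma adjusted p = 0.945). The test of the difference between these changes gave 0.68 (SE 0.17, limma adjusted p = 0.0553), which missed the threshold. Over single-array omissions its adjusted p ran from 0.00553, without control day 11 replicate 1, to 0.109. It passed in 5 of them: without replicate 1 or 3 of control day 11 (0.77 and 0.72), replicate 1 of control day 0 (0.73) or replicate 3 of either Nos3-/- group (0.71 for day 0 and 0.67 for day 11).

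Yolk-sac endoderm markers differed between genotypes at day 11 beside Igfbp2 and Igfbp4. Of the 17 genes of that list, 0 were higher and 11 lower in Nos3-/- embryoid bodies, and the list mean ran from 5.66 to 6.85 in Nos3-/- and from 6.68 to 11 in control embryoid bodies. The marker Afp averaged 6.50 ± 1.03 in Nos3-/- and 10.3 ± 2.40 in control embryoid bodies (SD, n = 6 and 9). With the list mean as a covariate among the 15 day 11 arrays, the Igfbp2 difference was 0.93 (SE 0.20) and passed (limma adjusted p = 0.0169). Of the control arrays only replicate 6, at 6.682, lay below the highest Nos3-/- array, at 6.846. The genotypes thus share almost no range of the list mean, and the fit cannot separate the list from genotype, for Igfbp2 or Igfbp4. In that fit 1 of 26 member probe sets and 2.94% of all probe sets were called, against 4 and 6.99% in the same arrays without the covariate.

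**Figure D4:**
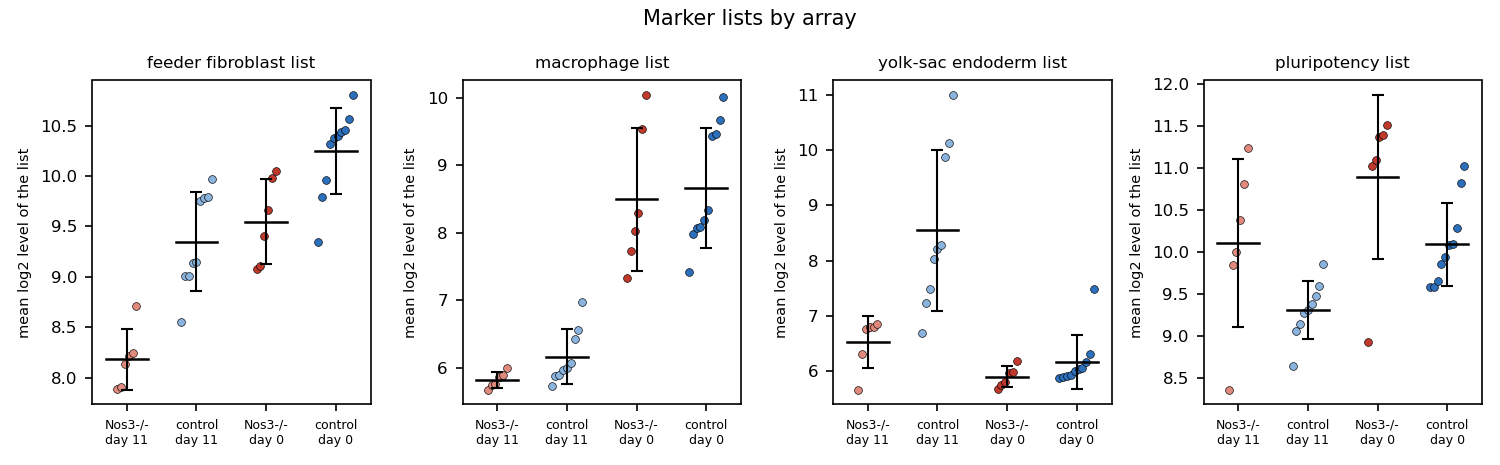
Mean log2 level of 4 marker lists on each array, for embryoid bodies (6 Nos3-/- and 9 control arrays) and iPSCs (6 Nos3-/- and 10 control arrays). Points are arrays, long bars group means and error bars SD; axes differ between panels and do not start at 0. The yolk-sac endoderm list ran from 5.66 to 6.85 in Nos3-/- and from 6.68 to 11 in control embryoid bodies, and the macrophage list was lower on every day 11 array than on every day 0 array.

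Igfbp4, which binds IGFs until Pappa cuts it, rose over time in both genotypes and was lower in Nos3-/- embryoid bodies on each of its 6 probe sets. On 1437405_a_at the lowest, median and highest levels were 10.09, 11.28 and 11.60 in Nos3-/- embryoid bodies, against 11.15, 12.02 and 12.41 in control embryoid bodies. In iPSCs they were 8.74, 9.16 and 10.18 for Nos3-/- and 9.50, 9.98 and 10.42 for control. At day 11 the genotypes overlapped, with 3 of 6 Nos3-/- arrays below every control array and 6 of 9 control arrays above every Nos3-/- array.

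On this probe set Igfbp4 rose by 1.82 in Nos3-/- (SE 0.25, limma adjusted p = 4.2e-06) and by 1.91 in control cells (SE 0.20, limma adjusted p = 9.76e-09). The days did not overlap in control cells, and in Nos3-/- cells they overlapped through day 0 replicate 1 (10.18) and day 11 replicate 3 (10.09). The rise was highest on 1423756_s_at, at 2.05 in Nos3-/- and 2.15 in control cells. It was lowest on 1421991_a_at, at 0.61 in control cells, where the Nos3-/- change of 0.25 did not pass (limma adjusted p = 0.132). The difference between genotypes in the change over time ran from -0.37 to -0.09 on the 6 probe sets, and 0 passed (limma adjusted p 0.309 to 0.934).

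The Igfbp4 differences between Nos3-/- and control embryoid bodies ran from -0.87 on 1423756_s_at (SE 0.22, limma adjusted p = 0.00776) to -0.45 on 1421991_a_at (SE 0.11, limma adjusted p = 0.00875). The lowest adjusted p was on 1421992_a_at, where the levels were 7.54, 8.04 and 8.47 in Nos3-/- and 8.28, 8.84 and 9.44 in control embryoid bodies (lowest, median, highest). There 4 of 6 Nos3-/- arrays lay below every control array, and the difference was -0.82 (SE 0.16, limma adjusted p = 0.000772). The 6 probe sets share a transcript and are not independent: 5 of them followed 1437405_a_at at r from 0.796 to 0.995 over the 31 arrays. On 1437405_a_at the difference was -0.77 (SE 0.22, limma adjusted p = 0.0251). It was lost without replicate 3, 4 or 5 of Nos3-/- day 11 (-0.57, -0.72 and -0.75) or replicate 5 or 7 of control day 11 (-0.71 each), with adjusted p from 0.0506 to 0.0872, while the other 5 probe sets passed in every single omission. Over these omissions the limma adjusted p of 1437406_x_at reached 0.0499. Without replicate 3 of both Nos3-/- groups, 4 of the 6 passed. With only the day 11 arrays fitted, 1437405_a_at, 1437406_x_at and 1423757_x_at did not pass (limma adjusted p = 0.0725, 0.082 and 0.0548). With the yolk-sac list mean as a covariate the 6 differences ran from -0.79 to -0.55, with larger standard errors of 0.17 to 0.33, and 0 passed (limma adjusted p 0.104 to 0.473).

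In iPSCs Igfbp4 was lower in Nos3-/- on 2 of 6 probe sets. On 1423756_s_at the levels were 7.26, 7.63 and 8.55 in Nos3-/- and 7.97, 8.58 and 9.01 in control iPSCs (lowest, median, highest). Of the 6 Nos3-/- arrays 4 lay below every control array, and replicate 1 was the highest of its group. The difference was -0.77 (SE 0.21, limma adjusted p = 0.0166), lost without Nos3-/- day 0 replicate 5 (-0.67, adjusted p = 0.0717). On 1437405_a_at it was -0.68 (SE 0.22, limma adjusted p = 0.0405), lost in 10 of 31 omissions, with an adjusted p of up to 0.148 without the same array. The other 4 ran from -0.44 to -0.10 and did not pass. The lowest of them, on 1421992_a_at, passed without Nos3-/- day 0 replicate 1 (-0.53, adjusted p = 0.0319), control day 0 replicate 5 (-0.48, 0.0457) or Nos3-/- day 11 replicate 3 (-0.44, 0.0496).

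Igfbp5, which also binds the extracellular matrix, differed between its 2 probe sets, since 1 of them rose and the other did not pass in any comparison. On 1452114_s_at the lowest, median and highest levels were 8.22, 10.75 and 11.49 in Nos3-/- embryoid bodies and 8.44, 10.37 and 11.06 in control embryoid bodies. In iPSCs they were 5.14, 6.41 and 7.93 for Nos3-/- and 5.10, 7.69 and 10.64 for control. The days did not overlap in Nos3-/- cells and overlapped in control cells, where day 0 replicate 10 reached 10.64 and day 11 replicate 1 was at 8.44.

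On 1452114_s_at Igfbp5 rose by 3.88 in Nos3-/- (SE 0.70, limma adjusted p = 0.000135) and by 2.77 in control cells (SE 0.55, limma adjusted p = 0.000234). On 1422313_a_at all 31 arrays lay between 7.17 and 7.79, and the changes were -0.03 in Nos3-/- and -0.11 in control cells (limma adjusted p = 0.801 and 0.195). Over the 31 arrays the probe sets correlated at r = -0.136. The stretch of the Igfbp5 transcript that each reads was not known here, and neither is preferred. No genotype difference of Igfbp5 passed: on 1452114_s_at they were 0.07 at day 11 and -1.03 at day 0 (SE 0.64 and 0.62, limma adjusted p = 0.971 and 0.309). Without Nos3-/- day 11 replicate 3 the day 11 difference was 0.50 (adjusted p = 0.729).

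Igfbp3, the main IGF carrier of adult blood, fell over time in control cells on both probe sets. On 1423062_at the lowest, median and highest levels were 9.61, 10.37 and 12.26 in Nos3-/- embryoid bodies and 9.70, 10.57 and 10.70 in control embryoid bodies. In iPSCs they were 9.28, 11.11 and 12.36 for Nos3-/- and 10.97, 11.90 and 12.44 for control. The days did not overlap in control cells. In Nos3-/- cells they overlapped widely, and the highest array of each day was its replicate 3.

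In control cells Igfbp3 fell by 1.45 on 1423062_at (SE 0.31, limma adjusted p = 0.000452) and fell by 1.49 on 1458268_s_at (SE 0.30, limma adjusted p = 0.000294). The changes in Nos3-/- were -0.35 (SE 0.39) and -0.26 (SE 0.38) and did not pass (limma adjusted p = 0.539 and 0.658). They rested on single arrays: without Nos3-/- day 11 replicate 3 they were -0.68 and -0.60, and without Nos3-/- day 0 replicate 3 they were -0.06 and 0.04 (adjusted p 0.151 to 0.956). The test of the difference between genotypes gave 1.10 and 1.23 (SE 0.49 each) and did not pass either (limma adjusted p = 0.306 and 0.24). At day 0 Igfbp3 was at -0.90 and -0.99 in Nos3-/- relative to control iPSCs, which did not pass (SE 0.35 and 0.34, limma adjusted p = 0.0872 and 0.0572). Without Nos3-/- day 0 replicate 3 both passed (-1.19, adjusted p = 0.0149, and -1.28, 0.0078). The difference on 1423062_at also passed without Nos3-/- day 11 replicate 3 (0.0457), and that on 1458268_s_at without that array (0.0251), Nos3-/- day 0 replicate 4 (0.0395) or control day 0 replicate 1 (0.0322). At day 11 the differences were 0.20 and 0.25 and did not pass, and their direction rested on Nos3-/- day 11 replicate 3, without which they were -0.13 and -0.10.

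Igfbp7, a relative of the binding proteins with lower affinity for IGFs that is found in vessel walls and matrix, was much lower in embryoid bodies on 1423584_at. Its lowest, median and highest levels were 6.73, 8.26 and 9.41 in Nos3-/- embryoid bodies and 6.87, 8.75 and 10.37 in control embryoid bodies. In iPSCs these were 10.36, 11.12 and 11.47 for Nos3-/- and 11.05, 11.76 and 13.13 for control. In each genotype every embryoid body array lay below every iPSC array. Igfbp7 fell by 3.05 in Nos3-/- (SE 0.45, limma adjusted p = 1.46e-05) and fell by 3.17 in control cells (SE 0.36, limma adjusted p = 6.6e-08).

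The Igfbp7 probe set 1423585_at fell by 1.32 in control cells (SE 0.19, limma adjusted p = 2.62e-06). Its change of -0.59 in Nos3-/- did not pass (SE 0.24, limma adjusted p = 0.0586), although the days did not overlap, and it passed without replicate 3, 6, 8 or 10 of control day 0 (adjusted p 0.0389 to 0.0456). It also passed in 5 of 9 other alternatives, with limma adjusted p = 0.00617 when only the 2 groups compared were fitted. On 1437804_at all levels lay between 7.46 and 7.80 and 0 of 5 comparisons passed, and its control change over time passed without control day 11 replicate 1 (-0.10, adjusted p = 0.0342). At day 0, 1423585_at was at 5.20, 5.48 and 5.65 in Nos3-/- iPSCs and at 5.52, 6.02 and 7.28 in control iPSCs (lowest, median, highest). Of the Nos3-/- arrays 4 of 6 lay below every control array. The difference was -0.90 (SE 0.21, limma adjusted p = 0.00541), and it passed in all 31 omissions of a single array. The highest control iPSC arrays were replicates 2, 3, 6 and 10, at 6.66, 7.22, 7.28 and 7.13, and the other 6 lay between 5.52 and 6.07. Those 4 arrays also had the highest smooth muscle list means, of 9.697 to 10.11 against 8.996 to 9.133 on the other control iPSC arrays and 8.524 to 9.181 on Nos3-/- iPSC arrays. Of the 7 genes of that list 0 were higher and 3 lower in Nos3-/- than in control iPSCs, and its part in the Igfbp7 result was not tested. On 1423584_at it was -0.91 (SE 0.41) and did not pass (limma adjusted p = 0.149).

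Igfbp6, which prefers Igf2 as its ligand, passed in none of the 5 limma comparisons on its single probe set 1417933_at. Its lowest, median and highest levels were 5.78, 6.96 and 7.16 in Nos3-/- embryoid bodies and 5.52, 6.00 and 8.51 in control embryoid bodies, and 6.20, 6.95 and 8.97 in Nos3-/- iPSCs and 6.15, 6.67 and 7.79 in control iPSCs. All 4 groups overlapped, with 2 arrays standing high in Nos3-/- iPSCs and 2 in control embryoid bodies. Changes over time were -0.67 in Nos3-/- and -0.24 in control cells (SE 0.46 and 0.37), and differences between genotypes 0.22 at day 11 and 0.65 at day 0 (SE 0.42 and 0.41), with adjusted p from 0.296 to 0.849.

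Feeder fibroblast markers also differed between genotypes in iPSCs and changed over time, and their part in the Igfbp7 change over time was not tested. Of the 23 measured genes of that list, among them Col1a1, 0 were higher and 7 lower in Nos3-/- than in control iPSCs, with list means of 9.08 to 10 in Nos3-/- and 9.34 to 10.8 in control iPSCs. Over time 0 rose and 16 fell in Nos3-/- and 4 rose and 11 fell in control cells. With the list mean as a covariate among the 16 day 0 arrays, 0 of 26 member probe sets and 1.5% of all probe sets were called, against 6 and 10.1% in the same arrays without it. In that fit the difference was -0.41 on Igfbp7 1423585_at (SE 0.29) and -0.48 on Igfbp4 1423756_s_at (SE 0.21), with limma adjusted p = 0.7 and 0.435. It was -0.34 on Igfbp4 1437405_a_at (limma adjusted p = 0.623). On Igf1r it was -0.12 on 1428967_at and -0.23 on 1426565_at (limma adjusted p = 0.898 and 0.8). Of the control iPSC arrays only replicates 5, 8 and 9, at 9.787, 9.344 and 9.964, lay below the highest Nos3-/- array, at 10.05. The list mean thus differed with genotype, and the fit cannot fully separate the list from genotype. The part of feeder cells in the iPSC differences was not tested. At day 11 the feeder list was lower in Nos3-/- beside Igfbp4, with 11 of its 23 genes lower and means of 7.89 to 8.71 in Nos3-/- and 8.55 to 9.97 in control embryoid bodies, and its part there was not tested. The pluripotency list differed too, with 8 of 22 genes higher and 0 lower in Nos3-/- embryoid bodies and 7 higher and 0 lower in Nos3-/- iPSCs, and its part in the member results was not tested.

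The genes whose levels followed each member most closely over the 31 arrays were listed among 16320 genes, at 1 probe set per gene, with the correlation of deviations from the group means in brackets. The arrays share the differences between the 4 groups and their cell makeup, so these values are a description. Igfbp7 was followed by the matrix genes Fbln2 (r = 0.954, within groups 0.721) and Thbs1 (0.952, within groups 0.849) and by Ptgs2 (0.948, within groups 0.75), and Fbln2 is itself in the feeder list. For Igfbp4 these were the netrin receptor Unc5c (0.945, within groups 0.765), the heart and limb transcription factor Hand2 (0.945, 0.749) and the matrix proteoglycan Vcan (0.937, 0.735). Vcan was also among the 3 for Igf2r (0.915, 0.677), with Ptov1 (0.925, 0.741) and Cuedc1 (0.914, 0.69). Igfbp5 was nearest to Arid3a (0.942, 0.825), the matrix peroxidase Pxdn (0.918, 0.841) and the Wnt receptor Fzd2 (0.918, 0.837). Igf1r was nearest to the kinase gene Wnk1 (0.907, 0.787), Ago2, of microRNA silencing (0.903, 0.788), and Plxnb2, a semaphorin receptor (0.901, 0.708).

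Other members had lower correlations at the top of their lists. Igfbp3 was nearest to Lypd6b (0.893, within groups 0.865), S100a10 (0.874, 0.854) and Fgfbp1 (0.869, 0.824). Igf1 was nearest to Tmem140 (0.844, within groups 0.732), the lysosomal fucosidase gene Fuca1 (0.836, 0.754) and Lgals3bp (0.83, 0.76). Igfbp6 was nearest to Fbxo6 (0.8, within groups 0.806), Prepl (0.798, 0.849) and Eef2kmt (0.754, 0.719). Igfbp2 had the lowest first correlation, with Sh3rf2 (0.786, within groups 0.49), followed by Sbsn (0.777, 0.376) and Stk25 (0.773, 0.365), and these fell most within groups.

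Of 44 other genes of the IGF pathway measured, at 1 probe set per gene, 19 rose and 5 fell over time in Nos3-/- and 18 rose and 6 fell in control cells, beside backgrounds of 30.7% of all genes in Nos3-/- (12.8% higher and 17.9% lower) and 34.1% in control cells (16% higher and 18.1% lower). Between genotypes 2 were higher and 3 lower in Nos3-/- at day 11, and 2 higher and 8 lower at day 0, beside 9.53% at day 11 (4.33% higher and 5.2% lower) and 14.9% at day 0 (8.29% higher and 6.57% lower). The 10 calls at day 0 became 21 without replicate 3 of both Nos3-/- groups. For the difference in the change over time 0 were called by limma, beside 0.951%, and 5 without those 2 arrays. The percentages are from all 31 arrays. The share of all genes called without the 2 arrays was not computed, so the counts of 21 and 5 have no background beside them.

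The ligand gene Igf2 ran from 11.26 to 14.18 in Nos3-/- and from 13.33 to 14.43 in control embryoid bodies, and from 9.45 to 11.63 in Nos3-/- and from 9.77 to 11.5 in control iPSCs. Igf2 rose by 3.12 in Nos3-/- (limma adjusted p = 1.09e-06) and by 3.52 in control cells (4.16e-10), and its genotype differences of -0.49 at day 11 and -0.10 at day 0 did not pass. Igfbp1, whose gene lies beside Igfbp3, ran from 3.99 to 4.33 in Nos3-/- and from 4.35 to 10.3 in control embryoid bodies, a difference of -2.60 (SE 0.66, limma adjusted p = 0.00906). Igfbp1 rose by 2.66 in control cells (limma adjusted p = 0.000537) and changed by 0.14 in Nos3-/- (0.913). The test of the difference between these changes gave -2.53 and did not pass (limma adjusted p = 0.2). The yolk-sac endoderm list was lower at day 11 beside Igfbp1, as given above, and its part in the Igfbp1 result was not tested. Insr, the insulin receptor, rose by 0.75 in Nos3-/- (limma adjusted p = 0.00195) and 0.58 in control cells (0.00164).

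Other pathway genes changed as follows. Pappa, the protease that cuts Igfbp4, was lower in Nos3-/- than in control iPSCs, at 7.11 ± 0.63 against 8.46 ± 0.98 (SD), a difference of -1.35 (limma adjusted p = 0.0117). It fell by 2.09 over time in control cells (limma adjusted p = 5.29e-06), and its change of -0.91 in Nos3-/- did not pass (0.0831). Grb14, an adaptor that dampens insulin receptor signalling, was lower in Nos3-/- by 1.72 on each day (limma adjusted p = 1.6e-09 at day 11 and 2.2e-09 at day 0). Grb10, a related adaptor, was lower in Nos3-/- iPSCs by 1.23 (limma adjusted p = 0.000576) and rose by 1.07 over time in Nos3-/- cells (0.00256). Grb14 also fell over time, by 0.89 in each genotype.

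By list, the 10 extracellular genes gave 2 risers and 2 fallers over time in Nos3-/- and 3 and 2 in control cells, and the 19 genes of PI3K, AKT and mTOR gave 10 and 2 in Nos3-/- and 9 and 1 in control cells. Of the 13 receptor relatives and adaptors, 5 rose and 1 fell in Nos3-/- and 4 rose and 3 fell in control cells. Both Igf2 mRNA-binding genes rose in both genotypes. Stc2, an inhibitor of Pappa, rose by 1.36 in control cells (limma adjusted p = 2.42e-05), and Stc1, its relative, fell by 1.11 (2.68e-05). Irs4, a docking protein of insulin and IGF receptors, fell by 1.54 in control cells (limma adjusted p = 0.0493). In Nos3-/- cells the serine protease gene Htra1 fell by 1.18 (limma adjusted p = 0.00293), Eif4ebp1, a translation repressor downstream of mTOR, fell by 0.40 (0.0376), and Pik3r3, a regulatory subunit of PI3K, rose by 1.03 (0.013). At day 11 the kinase gene Akt2 was at -0.33 in Nos3-/- relative to control embryoid bodies (limma adjusted p = 0.00876) and the transcription factor gene Foxo1 at 0.36 (0.0498). Igfals, which joins Igfbp3 in the serum complex, was higher in Nos3-/- by 0.21 at day 11 (limma adjusted p = 0.0184) and by 0.31 at day 0 (0.000558), and Igfbpl1 by 0.54 at day 0 (0.0149).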

How the data were processed

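Total RNA from iPSCs and embryoid bodies was labelled as biotinylated cRNA and hybridised to Affymetrix arrays, per the labels' protocols. The deposited values are log2 intensities, normalised by the authors with RMA per the submitters' processing notes; genome build and annotation are not given in the sources used here. Of 45101 probe sets, 64 control probe sets were left out. Symbols came from the platform annotation: 34945 probe sets had 1 symbol, 932 several and 9160 none. One limma model (limma 3.58.1, R 4.3.3) with the 4 groups was fitted to 31 arrays and 45037 probe sets, without covariates, and p-values were adjusted by Benjamini-Hochberg over all of them. The fit was tested on simulated data. Members and lists were chosen with earlier results of these data known. All member probe sets are named; of the pathway lists, up to 3 passing genes at each end of each comparison, with Igf2, Igfbp1 and Insr; and the 3 genes that correlate best with each member. Alternatives covered normalisation, filtering, probe set choice, array weights, moderation, replicate block, the arrays fitted, marker covariates and single-array omissions; leaving out both Nos3-/- replicates 3 together was chosen after seeing the data. No batch or scan date is given in the labels.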

Additional observations from a re-analysis of the deposited data

Results flagged for a closer look

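Of 104 groups of arrays (26 probe sets in 4 groups), 8 held an array far from the others by Dixon's criterion, and chance flags about 1 in 20. In control embryoid bodies, replicate 4 was highest for Igf1 on 1452014_a_at, at 8.13 with the next array at 7.04, and replicate 1 was lowest for Igfbp5 on 1452114_s_at, at 8.44 with the next at 10.21. Control iPSC replicate 10 was highest for Igf1r on 1452982_at, at 10.05 with the next at 9.33, and on 1428967_at, at 9.95 with the next at 9.32. Control iPSC replicate 1 was highest for Igfbp6 on 1417933_at, at 7.79 with the next at 6.93. Nos3-/- embryoid body replicate 3 was highest for Igfbp3 on 1458268_s_at, at 11.4 with the next at 9.79. Nos3-/- iPSC replicate 4 was lowest for Igf2r on 1424111_at, at 8.28 with the next at 8.8, and Nos3-/- iPSC replicate 1 was highest for Igfbp4 on 1437406_x_at, at 9.81 with the next at 9.43.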

How the results depend on the processing

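No called change reversed under any alternative run, while the Igf1 differences between genotypes, none of which passed, were above 0 on all 4 probe sets with either marker covariate. Over the single-array omissions, 3961 values of single probe sets kept their side of the threshold, 48 lost it and 21 gained it; over the other alternatives these were 1204, 29 and 28. At day 11 the count of 7 member probe sets became 2 of 9 with 1 probe set per gene, 2 of 9 with probe sets averaged per gene and 4 without probe sets ending in _x_at or _s_at. These settings test fewer features, and no feature kept in them lost its day 11 call. The count became 4 with only the arrays compared, beside 6.99% of all probe sets, and 1 with the yolk-sac covariate, beside 2.94%. Array weights added Igf1r 1446303_at and Igfbp7 1423584_at (limma adjusted p = 0.0328 and 0.0292). Omissions gave 6 to 8. The shares of all features called with averaging, without those suffixes and with weights were not computed. At day 0 the count of 5 became 1 with 1 probe set per gene, which is 11.1% of 9 genes beside 14.9% of all genes. It became 3 with probe sets averaged per gene, 3 with median centring and 0 with the feeder covariate, beside 1.5% of all probe sets. In the feeder fit 2 had an unadjusted limma p under 0.05, and the share of all probe sets at that level was not computed. Array weights added both Igfbp3 probe sets (limma adjusted p = 0.0457 and 0.0209). Without replicate 3 of both Nos3-/- groups the day 0 count became 8. The shares of all features called with averaging, centring, weights or without those arrays were not computed. Omissions gave 1, without Nos3-/- iPSC replicate 5, to 8, without replicate 3 of either Nos3-/- group. Over time the counts of 17 in Nos3-/- and 19 in control cells became 7 each with 1 probe set per gene and 6 each with the mean, where fewer features were tested; omissions gave 16 to 18 and 18 to 19. For the difference in change over time the count of 0 became 1, which was Igfbp2, with quantile normalisation, with the lowest tertile of levels left out, with 1 probe set per gene, with the mean, with array weights and without replicate 3 of both Nos3-/- groups; omissions gave 0 to 1. Of the 44 pathway genes, the 10 called at day 0 became 21 without those replicates, and the 0 called for the difference in change over time became 5. The share of all genes called without those replicates was not computed. With replicate number as a block, the day 0 count was 2 for the members and 6 for the pathway genes. In deviations from the group means, same-numbered arrays correlated at -0.219 to 0.305. Between the days of Nos3-/- cells the mean was 0.108 for same numbers and -0.0191 for others. Between the days of control cells these were -0.0149 and 0.00307, between genotypes at day 11 -0.0245 and 0.00413, and at day 0 0.0747 and -0.00892. Whether the numbers pair arrays is not labelled, and these values do not settle it. The block also ended the day 11 calls of Igfbp4 on 1437405_a_at (adjusted p = 0.115) and 1437406_x_at (0.0855), leaving 5 member probe sets called, and the Nos3-/- fall of Igf1 on 1419519_at (0.0538), while Igfbp7 on 1423585_at passed in Nos3-/- over time (0.0414). Apart from the settings whose construction is named, the cause was not tested. The deposited values carry no detection call, so which levels lie above background is not known.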
